A study of Mus musculus with 8 samples.

Results

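The 40 genes described here encode the adherens junctions and the apical polarity complexes of the neural epithelium. They were chosen by function, with earlier results of these data known, and all 40 were found in both count tables, among 23420 genes listed at E11.5 and 78298 at E12.5. By role they comprise 5 classical cadherins, 6 catenins, 3 nectins with afadin, 4 junction scaffold and actin linker genes, 8 genes of the Par complex with Cdc42, 4 of the Crumbs complex, 4 of the Scribble group, 2 Numb genes and 3 Dachsous and Fat cadherins.

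The study asked how loss of Mboat7 affects the developing cortex. MBOAT7 is an enzyme of the endoplasmic reticulum that attaches arachidonic acid to lysophosphatidylinositol and so sets the fatty acid composition of the phosphoinositides. Bulk RNA sequencing was done on dissected cortices of C57BL/6N embryos carrying a germline knockout allele of Mboat7, so that every cell of the embryo was Mboat7+/- (heterozygous, the control) or Mboat7-/- (homozygous). For each genotype 2 embryos were sequenced at E11.5 and 2 at E12.5, 8 cortices in all. No wild-type cortex is among them. In the labels the 2 cortices of a group are biological replicates, numbered 1 and 2 across groups, with batch numbers equal to these.

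Cortical progenitors at these ages form a pseudostratified epithelium. Radial glial cells hold on to their neighbours by adherens junctions close to the ventricle. Cadherins bind each other across the cell border and, through beta-catenin, p120-catenin and alpha-catenins, reach the actin cortex. Nectins and afadin form a parallel adhesion system at the same belt. On the apical side the Par and Crumbs complexes define the ventricular membrane, while Scrib, Dlg1 and the Llgl proteins mark the basolateral side. Neurons dismantle this belt when they leave the ventricular surface.

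The total count per cortex was 21843330 to 28189771 at E11.5 and 20799311 to 23330432 at E12.5, and 3 counts amount to 0.106 to 0.144 CPM (counts-per-million). Markers of dorsal cortex were present in every cortex, with Lhx2 at 331 to 475 CPM and Emx1 at 35.8 to 65.7 CPM at E11.5, and 511 to 553 and 73.2 to 79.7 CPM at E12.5. The targeted gene did not separate the genotypes in these counts per gene. At E11.5 Mboat7 had 700 and 876 counts in heterozygous libraries and 1103 and 860 in those labelled Mboat7-/-, and at E12.5 it had 739 and 782 against 730 and 729, with an adjusted p of 0.527 and 0.958 in edgeR's quasi-likelihood test. Directions therefore refer to the libraries as labelled. The blood markers tested, 4 at E11.5 and 6 at E12.5, all had fold changes below 0 and an unadjusted p under 0.05 (edgeR). Of all genes, 5.81% and 1.35% were lower at that threshold. The smallest adjusted p of a blood marker was 0.171 and 0.958 (edgeR). Summed, these markers were at 6736 and 5081 against 3519 and 3740 CPM at E11.5. At E12.5 they were at 4865 and 7120 against 4960 and 3341 CPM, where Mboat7+/- replicate 1 lay below Mboat7-/- replicate 1. In whole tissue, fewer cells of a type and less RNA per cell cannot be told apart.

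All 40 genes passed the filter on low counts at both stages. At E11.5 they took together 0.562% and 0.555% of the Mboat7+/- counts and 0.613% and 0.608% of the Mboat7-/- counts. The corresponding shares at E12.5 were 0.547% and 0.522% against 0.534% and 0.541%. The summed share thus separated the genotypes at E11.5 and overlapped at E12.5.

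Per kilobase of exon, the highest level belonged to Ctnnb1, with a mean of 258 CPM per kb at E11.5 and 273 at E12.5 over 4 cortices. Cdc42, the small GTPase that activates the Par complex, followed with 124 and 145 CPM per kb, and then Llgl1 with 69.0 and 61.2. Ctnna1 had 54.1 and 36.2 CPM per kb, and Cdh2, the N-cadherin of neural progenitors, had 44.8 and 52.0, so that these neighbours exchanged places between the stages. The lowest levels at E11.5 were those of Crb1 at 0.292 CPM per kb, Llgl2 at 1.22 and Cdh6 at 1.34, and at E12.5 those of Cdh1 at 0.175, Llgl2 at 0.244 and Crb1 at 0.440. Among the cadherins the per-length order at E11.5 was Cdh2, Cdh11 at 20.0 CPM per kb, Cdh4 at 11.2, Cdh1 at 2.80 and Cdh6. At E12.5 Cdh4 stood next to Cdh2 at 10.7 CPM per kb, then Cdh11 at 6.58, Cdh6 at 3.51 and Cdh1 last. Neighbours in these cadherin orders did not overlap over the 4 cortices of a stage.

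Mboat7-/- and Mboat7+/- cortices were compared within each stage by edgeR's quasi-likelihood test, run on the whole table, and a gene was called at an adjusted p (FDR) under 0.05. At E11.5 no gene of the 40 was called, and none of the 14935 genes tested was (0% called). An unadjusted p under 0.05 was reached by 13 of the 40 (32.5%), against 13.8% of all genes tested. Of these, 12 were higher in the Mboat7-/- cortices, a direction and threshold met by 7.94% of all genes, and 1 was lower, where the background was 5.81%. The log2 fold change was above 0 for 30 of the 40 genes (49% of all genes), and its median was 0.084 against -0.006 over all genes. In 20 genes both Mboat7-/- cortices lay above both Mboat7+/- cortices (23.1% of all genes) and in 5 both lay below (23.3%).

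At E12.5 none of the 40 was called, while 3 of 16326 genes were (0.0184%). An unadjusted p under 0.05 was found for 2 of the 40 (4.11% of all genes), Shroom3 and Crb1, both lower in the Mboat7-/- cortices (1.35% of all genes), while none was higher (2.76%). The fold change was above 0 for 16 genes (51.2% of all genes) and the median was -0.007 (0.005 over all genes). Both Mboat7-/- cortices lay above both controls in 4 genes (16.9% of all genes) and below them in 8 (15.2%).

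**Figure D1:**
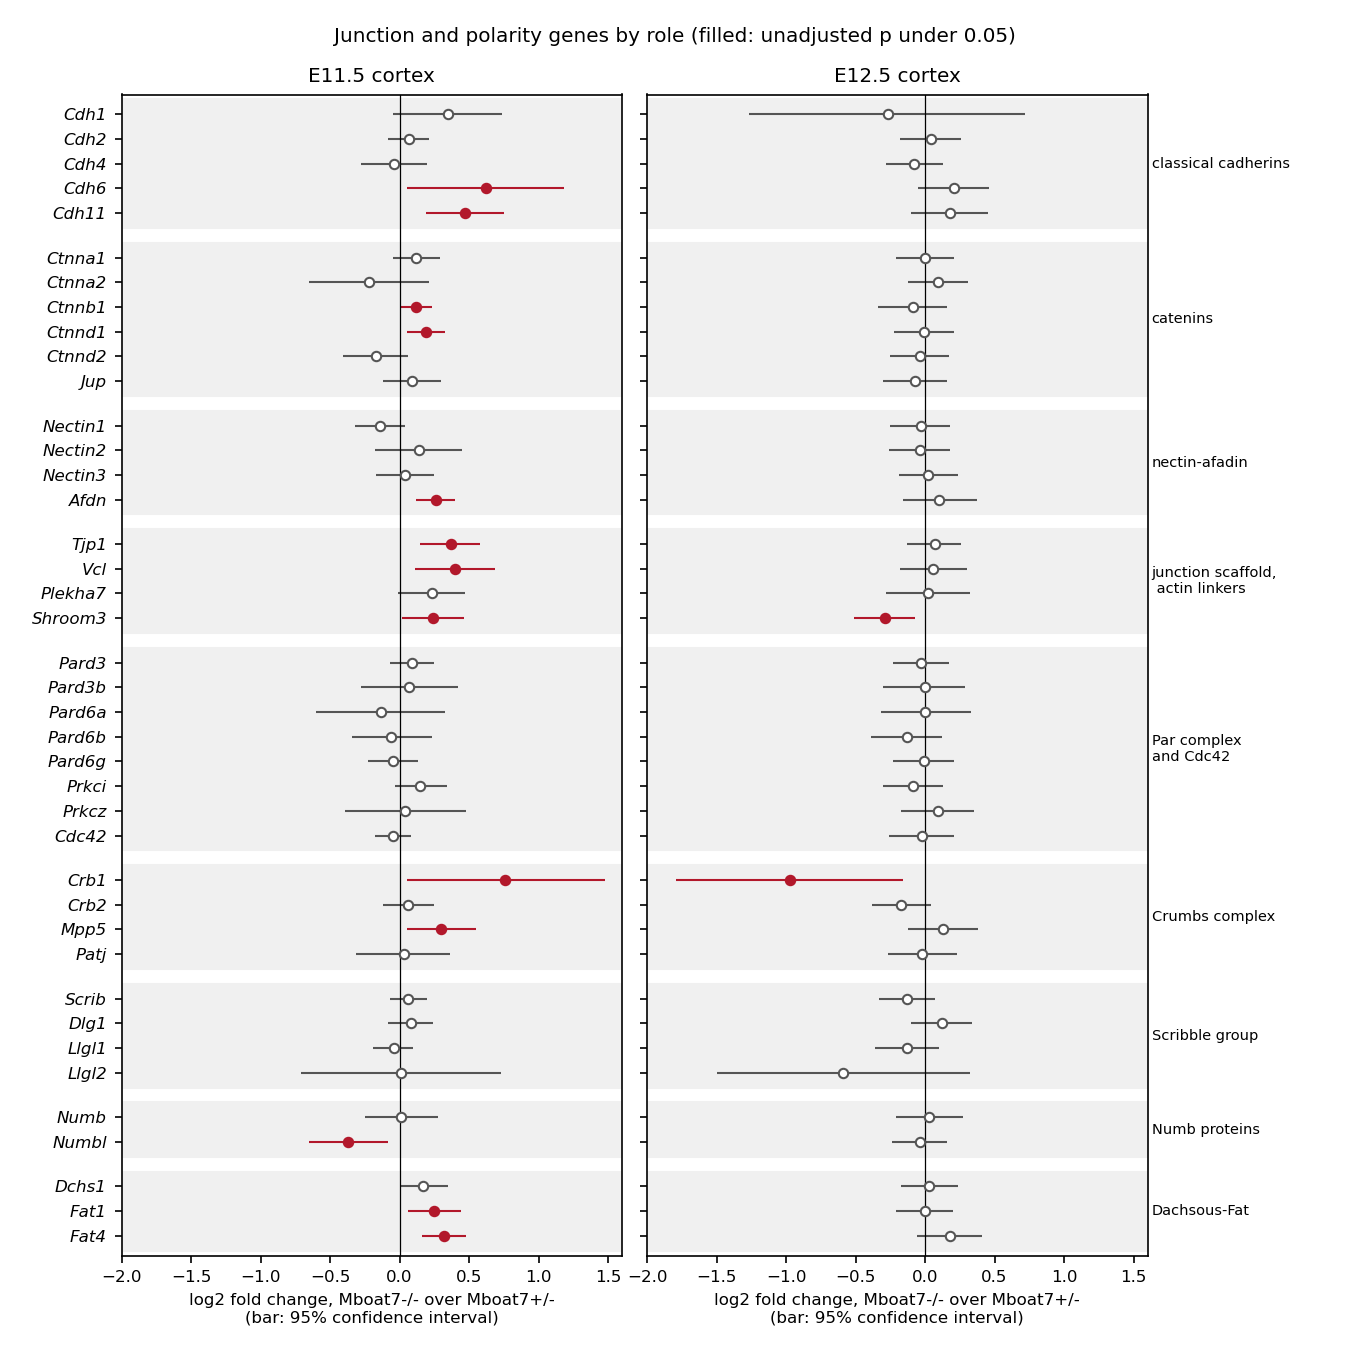
Log2 fold change of Mboat7-/- over Mboat7+/- cortices for the 40 genes, grouped by role, at E11.5 (left) and E12.5 (right), with bars for the 95% confidence interval from edgeR's quasi-likelihood fit of 2 against 2 cortices. Filled red points have an unadjusted p under 0.05. At E11.5 there are 13 of them, 12 to the right of 0, and at E12.5 there are 2, both to the left.

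The E11.5 counts depended on how the data were fitted. The genes described here are long: their median exon length was 7565 bases (1582 to 17165), against 4402 for all genes tested at E11.5, and 34 of 40 exceeded that value. A smooth trend of counts on length and GC was then removed from each library. In this fit 6 of the 40 had an unadjusted p under 0.05 (9.64% of all genes), 4 of them higher (4.31%). The median was 0.031, against -0.021 over all genes. The direction of 6 genes turned in this fit, Cdh2, Nectin3, Pard3, Pard3b, Patj and Dlg1, which were above 0 before and below 0 after, so that 24 of the 40 stayed above 0. With the replicate number as a block, 4 of the 40 were called at E11.5, Cdh11, Fat4, Tjp1 and Vcl, while 349 of all genes were (2.34%). With the block and the trend removed together, none of the 40 was called, and none of all genes (0%). DESeq2 called 3 of the 40 at E11.5, Cdh11, Fat4 and Tjp1, beside 178 of all genes, and none of the 40 at E12.5, over both stages or between them.

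Among the classical cadherins, Cdh1 and Cdh2 are the epithelial and the neural type. Cdh1, E-cadherin, had 270 and 268 counts in Mboat7+/- and 400 and 359 in Mboat7-/- cortices at E11.5, or means of 11.3 CPM ± 1.66 and 14.3 CPM ± 0.275 (SD, n = 2). Both Mboat7-/- cortices were above both controls, with a log2 fold change of 0.35 (standard error 0.17, 95% confidence interval -0.05 to 0.74, adjusted p = 0.429, edgeR). Only 22 and 15 against 19 and 14 counts were found at E12.5, or 1.06 and 0.695 against 0.825 and 0.619 CPM, and the genotypes overlapped. The fold change there was -0.27 with an interval of -1.27 to 0.72, so that a difference of either direction was not detectable at this depth.

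Cdh2, the main cadherin of the ventricular zone, measured 350 and 357 CPM in Mboat7+/- and 354 and 385 CPM in Mboat7-/- cortices at E11.5. At E12.5 the values were 420 and 408 against 426 and 423 CPM. The fold changes were 0.07 (interval -0.08 to 0.21) and 0.04 (interval -0.18 to 0.26), with adjusted p of 0.689 and 0.974 in edgeR's test. Both intervals held 0, and differences beyond 0.26 on the log2 scale in either direction lay outside both.

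Cdh11, a cadherin of mesenchyme and of some neural cells, had the smallest p of the cadherins at E11.5. It measured 152 and 146 CPM in Mboat7+/- and 237 and 176 CPM in Mboat7-/- cortices. The log2 fold change was 0.47 (standard error 0.12, unadjusted p = 0.00475, adjusted p = 0.206, edgeR), and with the replicate block the adjusted p was 0.0196. Without Mboat7-/- replicate 1, the highest cortex, the fold change was 0.24, and without replicate 2 it was 0.67 with an adjusted p of 9.38e-05 (edgeR). At E12.5 the values were 62.3 and 47.7 against 61.7 and 62.7 CPM, and the genotypes overlapped (0.18, standard error 0.12, adjusted p = 0.958, edgeR).

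Cdh6, a type II cadherin known from the lateral ganglionic eminence, measured 9.42 and 9.60 CPM against 18.3 and 10.9 CPM at E11.5. Its fold change of 0.62 (standard error 0.25, unadjusted p = 0.0351, adjusted p = 0.324, edgeR) came mostly from replicate 1, and was 0.19 without it. The E12.5 levels were 31.8 and 27.0 against 34.9 and 32.9 CPM, again without overlap (0.21, standard error 0.11, adjusted p = 0.958, edgeR). Cdh4, the retinal type R-cadherin, overlapped at E11.5 (-0.04) and was lower without overlap at E12.5 (-0.08), with intervals of -0.28 to 0.20 and -0.28 to 0.13.

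**Figure D2:**
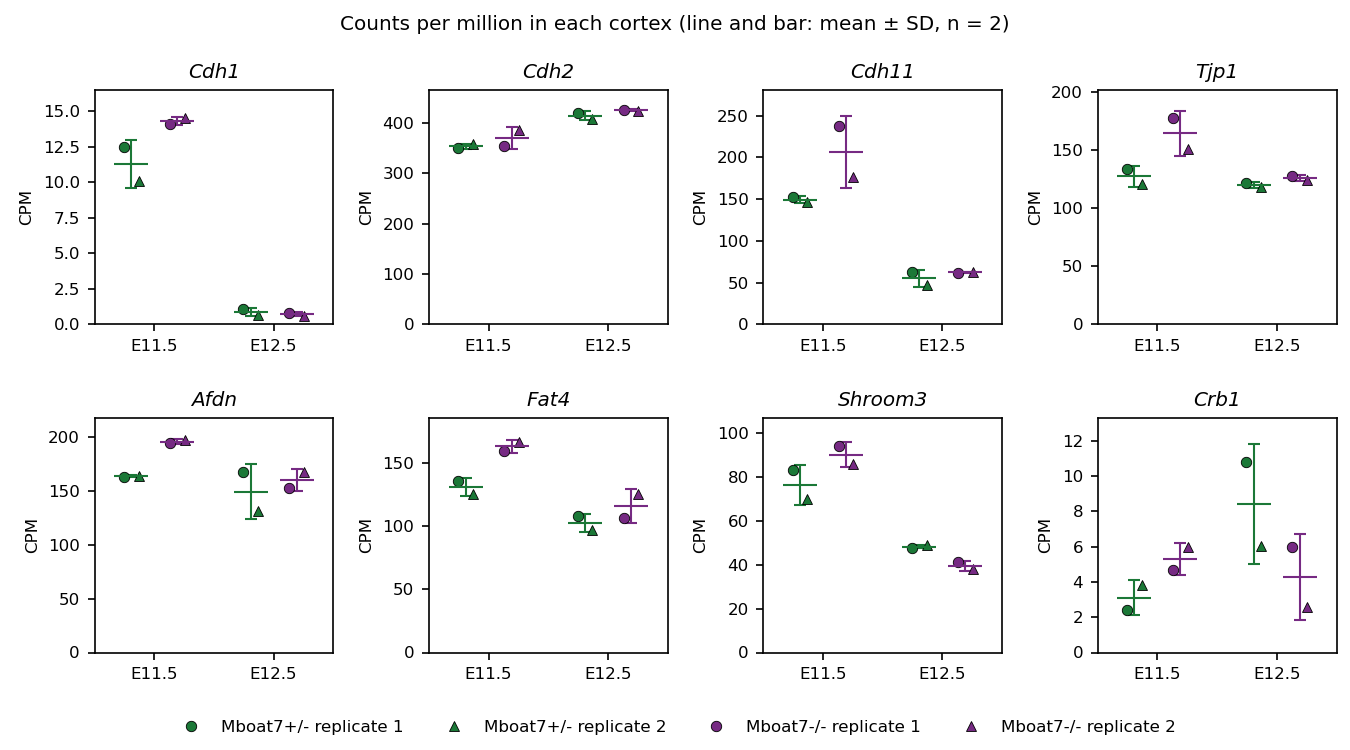
CPM of 8 of the genes in each of the 8 cortices, with the mean and SD of each group (n = 2) and the y axis starting at 0. At E11.5 the Mboat7-/- cortices lie above the controls for each gene but Cdh2. At E12.5 Shroom3 and Crb1 lie below, and Cdh1 lies near 0 in every cortex.

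The markers of 2 other tissues that a dissected cortex can carry were summed beside these cadherins at E11.5. The 8 mesenchyme markers summed to 1560 and 1514 CPM in Mboat7+/- and 1759 and 1955 CPM in Mboat7-/- cortices, with fold changes of 7 of 8 above 0 (49% of all genes) and 6 at an unadjusted p under 0.05 (13.8% of all genes), and none of the 8 at 0 CPM in every cortex. Pdgfra, a receptor of mesenchymal cells, was 73.8 and 64.1 against 119 and 91.2 CPM, highest in Mboat7-/- replicate 1 like Cdh11. The sum of the 8 was instead highest in Mboat7-/- replicate 2. The 11 epithelium markers summed to 55.1 and 51.6 against 76.3 and 62.6 CPM, with 9 of 11 above 0, none at 0 CPM, and 1, Krt8, at an unadjusted p under 0.05 (0.72, standard error 0.19, adjusted p = 0.210, edgeR). That is 9.09% of the epithelium markers, below the 13.8% of all genes, and no marker of either tissue was called. The dorsal cortex markers Emx1, Lhx2 and Emx2 were at -0.53, -0.29 and -0.17 at E11.5. The fold changes of all 7 neuron markers were below 0 too, where 49% of all genes were above 0. Of the 7, 1 had an unadjusted p under 0.05 (13.8% of all genes, edgeR). Their summed CPM of 1876 and 2143 against 1255 and 1980 overlapped and was lowest in Mboat7-/- replicate 1. At E12.5, 6 of the 7 were above 0 (51.2% of all genes). The part of these tissues in the cadherin values was not tested.

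The catenins link cadherins to actin. Ctnnb1, beta-catenin, which also serves Wnt signalling, had 27569 and 34393 counts in Mboat7+/- and 39386 and 34570 in Mboat7-/- cortices at E11.5. In CPM the Mboat7-/- cortices were higher without overlap (0.12, standard error 0.05, unadjusted p = 0.0453, adjusted p = 0.350, edgeR), and leaving out any 1 cortex gave 0.11 to 0.14. At E12.5 the counts were 30515 and 31508 against 32694 and 29999, and in CPM the Mboat7-/- cortices were lower without overlap (-0.09, standard error 0.11, adjusted p = 0.960, edgeR).

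Ctnnd1, p120-catenin, which keeps cadherins at the membrane, measured 222 and 215 against 244 and 255 CPM at E11.5 (0.19, standard error 0.06, unadjusted p = 0.0135, adjusted p = 0.249, edgeR), and was at 0.11 with the trend on length and GC taken out. The E12.5 levels of 224 and 211 against 228 and 206 CPM overlapped (-0.01, interval -0.22 to 0.21). Ctnna1, the alpha-catenin of epithelia, overlapped at both stages (0.12 at E11.5). The neuronal relatives Ctnna2 and Ctnnd2 were at -0.22 and -0.17 at E11.5. Ctnna2 was lowest in Mboat7-/- replicate 1, at 48.7 CPM against 70.8 to 78.8 CPM in the other 3 cortices, and its direction rested on that cortex: the fold change was 0.09 without it, and -0.61 without replicate 2 (adjusted p = 0.000852, edgeR). Jup, plakoglobin, was higher without overlap at E11.5 (0.09, interval -0.12 to 0.30).

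In the nectin system, afadin separated the genotypes at E11.5. Afdn, the scaffold that ties nectins to actin, measured 163 and 164 CPM in Mboat7+/- and 194 and 197 CPM in Mboat7-/- cortices. The replicates lay close together and the fold change was 0.26 (standard error 0.06, unadjusted p = 0.00271, adjusted p = 0.190, edgeR), between 0.25 and 0.27 whichever cortex was left out, and 0.13 once the trend on length and GC was taken out. A day later the levels of 167 and 131 against 153 and 167 CPM overlapped. The nectins themselves were at -0.14 (Nectin1), 0.14 (Nectin2) and 0.04 (Nectin3) at E11.5 and between -0.04 and 0.02 at E12.5, with intervals that held 0. Without Mboat7-/- replicate 1 the E11.5 direction turned for Nectin2 (-0.09) and Nectin3 (-0.06), and Nectin3 was at -0.11 with the trend taken out.

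All 4 scaffold and actin linker genes were higher without overlap at E11.5 (23.1% of all genes). Tjp1, the zonula occludens protein ZO-1, measured 134 and 121 CPM in Mboat7+/- and 178 and 151 CPM in Mboat7-/- cortices (0.37, standard error 0.09, unadjusted p = 0.00408, adjusted p = 0.198, edgeR). The adjusted p was 0.0214 with the replicate block, and the fold change was 0.24 without Mboat7-/- replicate 1. At E12.5 Tjp1 measured 122 and 118 against 128 and 124 CPM, again without overlap but closer (0.07, interval -0.13 to 0.26, adjusted p = 0.960, edgeR).

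Vcl, vinculin, which joins alpha-catenin under tension, measured 66.9 and 59.3 against 94.1 and 72.1 CPM at E11.5 (0.40, standard error 0.13, unadjusted p = 0.0128, adjusted p = 0.244, edgeR). It was highest in Mboat7-/- replicate 1, without which the fold change was 0.19, and its adjusted p was 0.0344 with the replicate block. At E12.5 the values were 30.9 and 30.5 against 30.1 and 34.0 CPM and overlapped. Plekha7, which connects p120-catenin to microtubules, was at 0.23 at E11.5 (interval -0.01 to 0.47) and 0.02 at E12.5.

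Shroom3, which drives apical constriction at the junction belt, had opposite directions at the stages. At E11.5 it measured 82.9 and 70.0 CPM in Mboat7+/- and 94.2 and 86.0 CPM in Mboat7-/- cortices (0.24, standard error 0.10, unadjusted p = 0.0390, adjusted p = 0.332, edgeR). At E12.5 it measured 47.7 and 48.8 against 41.0 and 37.9 CPM (-0.29, standard error 0.10, unadjusted p = 0.0138, adjusted p = 0.958, edgeR). Neither stage had an overlap between genotypes. Leaving out any 1 cortex gave 0.13 to 0.37 at E11.5 and -0.36 to -0.23 at E12.5, and taking out the trend gave 0.14 and -0.36.

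The Par complex orders the apical membrane through atypical protein kinase C. None of its 8 genes had an unadjusted p under 0.05 at either stage, and the median of the 8 at E11.5 was -0.002 and that at E12.5 -0.016. At E11.5 the genotypes did not overlap in 4 of the 8. Of these, 2 were higher in Mboat7-/- cortices (23.1% of all genes) and 2 lower (23.3%). Summed over the 8, the level was 700.7 and 700.2 CPM in Mboat7+/- and 701.5 and 698.3 CPM in Mboat7-/- cortices at E11.5. Pard3, the scaffold of the complex, was at 0.09 and -0.03 at the 2 stages, and its relative Pard3b at 0.07 and -0.00, and with the trend taken out the E11.5 values were -0.04 and -0.07. The adaptor genes Pard6a, Pard6b and Pard6g were at -0.13, -0.06 and -0.05 at E11.5. Of the kinases, Prkci was at 0.15 at E11.5 (interval -0.03 to 0.34) and -0.09 at E12.5, and Prkcz at 0.04 and 0.09. Cdc42 was at -0.05 at E11.5 (interval -0.18 to 0.08) and -0.02 at E12.5 (interval -0.26 to 0.21).

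The Crumbs complex lies apical to the junction belt. Crb1, a transmembrane Crumbs protein, was the least abundant of the 40 genes per length at E11.5, with 52 and 101 counts in Mboat7+/- and 132 and 147 in Mboat7-/- cortices at E11.5. These amount to 2.40 and 3.82 against 4.67 and 5.95 CPM (0.76, standard error 0.31, unadjusted p = 0.0397, adjusted p = 0.334, edgeR). At E12.5 the counts were 225 and 130 against 138 and 58, or 10.8 and 6.02 against 5.99 and 2.56 CPM (-0.97, standard error 0.37, unadjusted p = 0.0235, adjusted p = 0.958, edgeR). The groups did not overlap at either stage, yet at E12.5 Mboat7+/- replicate 2 and Mboat7-/- replicate 1 were nearly level, and the fold change ran from -1.72 to -0.49 as cortices were left out.

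The adjusted p of Crb1 at E12.5 was 0.200 with the replicate block, where 0.129% of all genes were called, and 0.00216 with the block and the trend taken out (edgeR), where 0.319% were. Its fold change was -1.72 without Mboat7-/- replicate 1, -1.34 without Mboat7+/- replicate 2 and -0.49 without either of the other cortices. Crb2, the Crumbs gene most abundant in these cortices, was at 0.06 and then at -0.17, without overlap at the later stage (interval -0.38 to 0.04). Mpp5, the PALS1 scaffold that binds Crumbs, measured 41.8 and 39.6 against 54.2 and 45.7 CPM at E11.5 (0.30, standard error 0.11, unadjusted p = 0.0260, adjusted p = 0.298, edgeR). The fold change was 0.17 without Mboat7-/- replicate 1 and 0.14 with the trend on length and GC taken out. Its E12.5 levels of 41.3 and 34.0 against 42.0 and 40.5 CPM overlapped. Patj, the adaptor of Mpp5, was at 0.03 and -0.02, and at -0.11 at E11.5 with the trend taken out.

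The basolateral Scribble group had no gene with an unadjusted p under 0.05. Scrib measured 244 and 254 against 259 and 261 CPM at E11.5 (0.06, interval -0.07 to 0.20) and 129 and 123 against 112 and 118 CPM at E12.5 (-0.13, interval -0.33 to 0.07). Both differences were small and without overlap, in opposite directions. Dlg1 was higher without overlap at both stages (0.08 and 0.12), yet with the trend on length and GC taken out its E11.5 fold change was -0.07. Llgl1, the main Lgl gene here, was at -0.04 and -0.13, and Llgl2, with 153, 126, 209 and 110 counts at E11.5 and 38, 22, 22 and 21 at E12.5, at 0.01 and -0.59, with an interval of -1.50 to 0.32 at E12.5.

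Numbl was the only 1 of the 13 E11.5 genes to be lower in Mboat7-/- cortices. This relative of the Notch antagonist Numb, which also helps to maintain the junctions of radial glia, measured 105 and 97.2 against 67.5 and 89.6 CPM (-0.37, standard error 0.12, unadjusted p = 0.0178, adjusted p = 0.270, edgeR). It was lowest in Mboat7-/- replicate 1, the cortex that was also lowest for the summed neuron markers, and was -0.17 without it. At E12.5 Numbl measured 72.2 and 68.9 against 69.5 and 67.6 CPM and overlapped. Numb overlapped at both stages (0.01 and 0.03).

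The giant cadherins of the Dachsous and Fat group act in planar polarity and Hippo signalling. All 3 were higher without overlap at E11.5 (23.1% of all genes). Fat4 measured 136 and 126 CPM in Mboat7+/- and 160 and 167 CPM in Mboat7-/- cortices (0.32, standard error 0.07, unadjusted p = 0.00163, adjusted p = 0.190, edgeR). Its fold change was 0.27 to 0.38 whichever cortex was left out, its adjusted p was 0.0377 with the replicate block, and the fold change fell to 0.19 once the trend on length and GC was taken out. With 17165 bases of exon it was the longest of the 40 genes. At E12.5 it measured 108 and 97.4 against 107 and 126 CPM and overlapped (0.18, interval -0.06 to 0.41).

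Fat1 measured 263 and 235 against 314 and 279 CPM at E11.5 (0.25, standard error 0.08, unadjusted p = 0.0142, adjusted p = 0.253, edgeR) and 211 and 216 against 214 and 212 CPM at E12.5. The E11.5 fold change was 0.16 without Mboat7-/- replicate 1 and 0.12 with the trend taken out, and the genotypes overlapped at E12.5. Dchs1, the ligand of Fat4, was at 0.17 at E11.5 (interval -0.00 to 0.35) and 0.03 at E12.5.

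**Figure D3:**
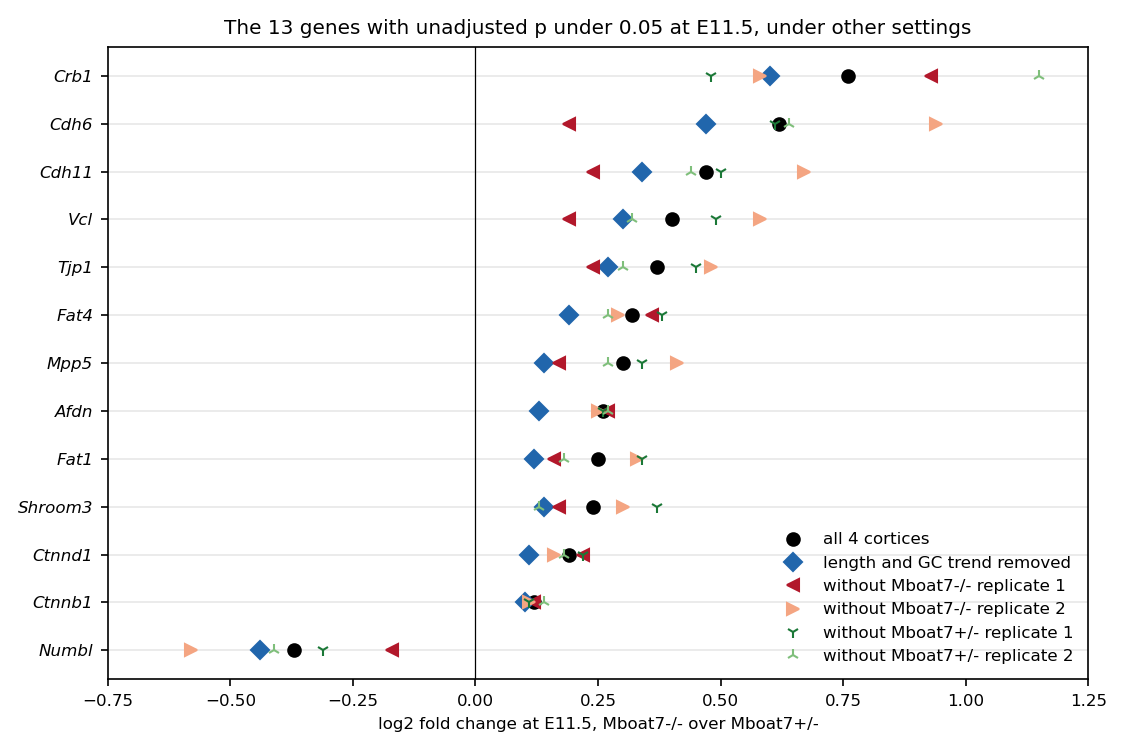
Log2 fold change at E11.5 of the 13 genes with an unadjusted p under 0.05, with all 4 cortices (black), with the length and GC trend removed (blue) and with each cortex left out in turn (triangles and ticks). All stay on their side of 0. For the cortices left out this follows from the lack of overlap between genotypes in all 13. Afdn runs from 0.25 to 0.27 over the cortices left out, and Cdh6 from 0.19 to 0.94.

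Of the 40 genes, 16 had their highest E11.5 level in Mboat7-/- replicate 1 and 15 in replicate 2, against 29.6% and 21.7% of all genes tested. Leaving out Mboat7-/- replicate 1 left 8 genes with an unadjusted p under 0.05, all 8 higher (11.8% of all genes in either direction), and none called. Leaving out replicate 2 gave 18, against 20.6% of all genes, and 11 of the 40 were called while 7.7% of all genes were. The 11 were Cdh6, Cdh11, Nectin2, Tjp1, Vcl, Mpp5, Fat1 and Fat4, which were higher, and Ctnna2, Ctnnd2 and Numbl, which were lower. A cortex left alone in its group was assumed to vary like the other group.

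The sequence before an annotated start is given for 3 of the 4 genes called with the replicate block. The comparison without a block called none of the 4. RefSeq promoters of GRCm38.p6 were matched for 28 of the 40 genes (42 starts), Cdh11 not among them, and the 250 bases upstream of each start were searched on both strands. The motifs were GGAATG, the core bound by the TEAD factors of Hippo signalling, CAGGTG, the E-box bound by Snail and Zeb repressors of cadherins, and the CArG box bound by serum response factor. No match overlapped a match of another motif in the windows printed. The sequences of Fat4 (chr3:38886690-38886939, plus strand), Tjp1 (chr7:65371245-65371494, minus strand) and Vcl (chr14:20929148-20929397, plus strand) follow 5′ to 3′, with matches in capitals:
Fat4: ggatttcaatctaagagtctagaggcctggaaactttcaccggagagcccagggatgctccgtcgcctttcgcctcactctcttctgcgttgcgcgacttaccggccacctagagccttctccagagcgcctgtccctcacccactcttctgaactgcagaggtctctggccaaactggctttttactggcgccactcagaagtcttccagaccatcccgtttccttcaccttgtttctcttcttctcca
Tjp1: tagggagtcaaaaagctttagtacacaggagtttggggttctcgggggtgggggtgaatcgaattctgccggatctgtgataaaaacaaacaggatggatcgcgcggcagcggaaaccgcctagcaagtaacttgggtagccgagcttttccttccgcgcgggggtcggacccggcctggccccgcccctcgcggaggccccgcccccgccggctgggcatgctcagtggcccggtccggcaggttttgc
Vcl: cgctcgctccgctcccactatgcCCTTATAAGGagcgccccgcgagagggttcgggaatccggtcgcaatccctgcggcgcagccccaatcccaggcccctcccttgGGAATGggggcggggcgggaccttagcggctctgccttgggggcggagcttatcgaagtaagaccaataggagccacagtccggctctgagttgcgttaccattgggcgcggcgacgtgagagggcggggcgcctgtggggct
The capitals in Vcl mark a CArG box and then a GGAATG. The Fat4 and Tjp1 windows hold none of the 3 motifs. The Tjp1 window lies inside the gene as annotated in GENCODE M21, which begins at chr7:65527781 on the minus strand. GGAATG was found before 3 of the 28 genes (10.7%), Fat1, Prkci and Vcl, against 14.4% of 27025 genes in the table. CAGGTG was found before 8 of the 28 (28.6%; Ctnna2, Fat1, Nectin2, Numb, Pard3, Pard6b, Patj and Prkcz) against 19.4% of all genes, and the CArG box before 1 (3.57%) against 1.62%. These shares count a match at any start of a gene, and some genes have several starts. By the same annotation, the Fat1 window and the CAGGTG windows of Nectin2, Numb and Pard3 also lie inside their genes. So does a Prkcz window with a CAGGTG. Per start, CAGGTG was found at 9 of 42 (21.4%) against 17.2% of 32851. GGAATG was found at 3 of the 42 (7.14%) against 12.6%, and the CArG box at 1 (2.38%) against 1.47%.

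Over both stages, in a fit with stage as a term, no gene of the 40 was called, and none of 14980 genes (0%). An unadjusted p under 0.05 was reached by 8 of the 40 (11.4% of all genes), 7 higher (6.72%) and 1 lower (4.65%). The fold change was above 0 for 25 of the 40 (51.3% of all genes). The 7 were Cdh6, Cdh11, Afdn, Tjp1, Vcl, Mpp5 and Fat4, and the lower gene was Numbl. This fit uses the E11.5 cortices again. The largest of these fold changes was that of Cdh6, at 0.40 (adjusted p = 0.384, edgeR), and Fat4 had the smallest p, at 0.25 (standard error 0.07, adjusted p = 0.378, edgeR).

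The genotype difference was also compared between stages, as the E12.5 minus the E11.5 log2 fold change. No gene of the 40 was called, nor any of all genes (0%), and 3 of the 40 had an unadjusted p under 0.05, all downward (2.94% of all genes) and none upward (2.77%), against 5.71% in either direction. Shroom3 differed by -0.53 (standard error 0.14, unadjusted p = 0.0031, adjusted p = 0.595, edgeR). Crb1 differed by -1.73 (standard error 0.56, adjusted p = 0.794) and Tjp1 by -0.30 (standard error 0.13, adjusted p = 0.859), both in edgeR's test. The difference was above 0 for 10 of the 40 genes, against 51.8% of all genes.

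The levels of the genes at the 2 stages were set side by side without a test, because the tables came from other sequencing providers, platforms and annotations, which cannot be told apart from stage. The median gene shared by the tables was 1.18 times higher in CPM at E11.5. Cdh1 stood farthest from this, with a mean over 4 cortices of 12.8 CPM at E11.5 and 0.799 CPM at E12.5, a 16-fold ratio that 1.57% of shared genes reach. Llgl2, an Lgl gene of epithelia, was next at 5.92 and 1.18 CPM, a 5.01-fold ratio, and 4.74% of shared genes are at least 5 times higher at E11.5. Cdh11 (3.03-fold), Vcl (2.33-fold) and Scrib (2.12-fold) were also at least 2 times higher at E11.5. In the other direction Cdh6 was 2.63 times and Ctnna2 1.9 times higher at E12.5. The cortices of the 2 stages did not overlap in 17 genes higher at E11.5 (43.1% of 14980 shared genes) and 7 higher at E12.5 (19% of them), shares close to those of all genes.

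**Figure D4:**
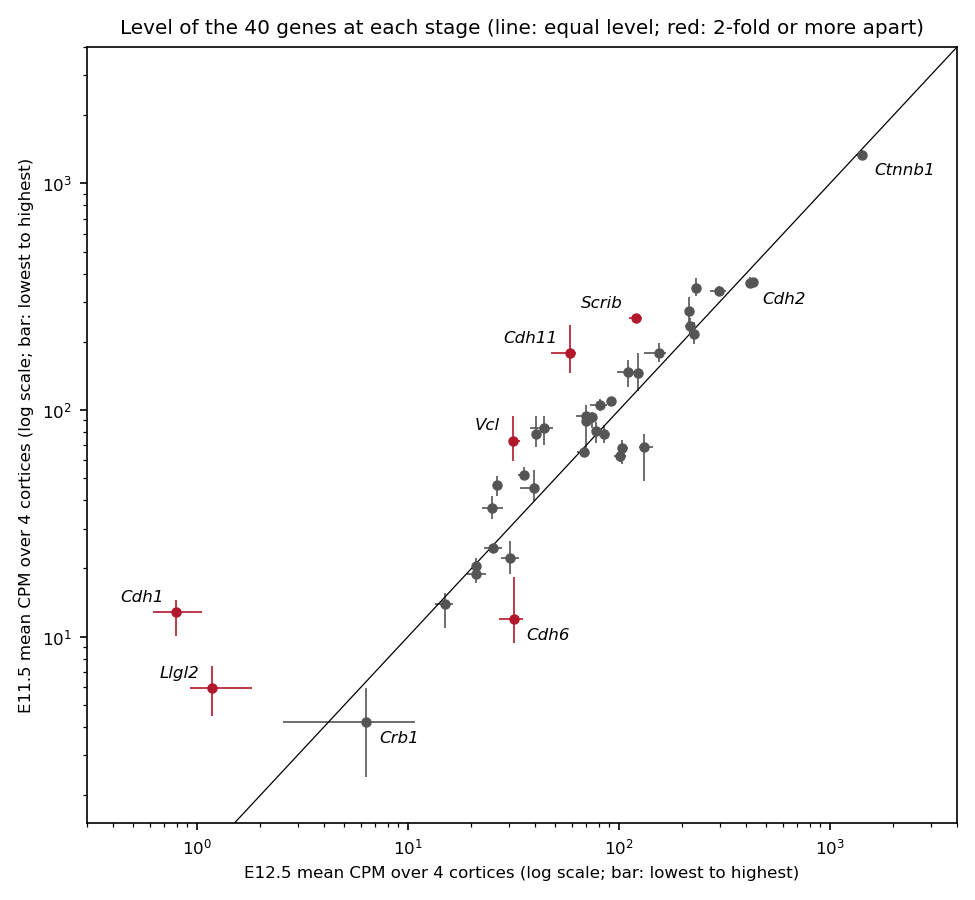
Mean CPM of the 40 genes over the 4 cortices of each stage, E12.5 on the x axis and E11.5 on the y axis, both on log scales, with bars from the lowest to the highest cortex. Cdh1 and Llgl2 lie farthest above the line of equal level, and Cdh6 lies below it.

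The surface-epithelium genes, like Cdh1, had their higher levels at E11.5. The 11 epithelium markers summed to 51.6 to 76.3 CPM over the E11.5 cortices and 5.62 to 6.69 CPM over the E12.5 cortices. Krt5 and Krt14, the keratins that define basal epidermis, were at 2.94 to 6.32 and 0.141 to 1.86 CPM at E11.5 and had no count in any E12.5 cortex, where 3 counts are 0.129 to 0.144 CPM. Trp63, the factor of basal epithelial cells, was at 3.78 to 5.18 CPM and then 0.0481 to 0.221 CPM. Cdh3, P-cadherin, was at 17.1 to 22.0 CPM and then 0.521 to 1.28 CPM. The mesenchyme markers also differed, with 1514 to 1955 summed CPM at E11.5 and 513 to 691 at E12.5, in the direction of Cdh11 and Vcl. Their part in the stage difference was not tested.

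A wider list of 75 genes of the same machinery was tabulated beside the 40. At E11.5, 72 were tested, none was called, and 17 had an unadjusted p under 0.05, 13 higher and 4 lower, with a median of 0.072 (13.8% of all genes, median -0.006). With the trend on length and GC taken out the median was 0.005 (-0.021 over all genes). In that fit 16 had an unadjusted p under 0.05 (9.64% of all genes), 9 of them higher (4.31%). The 5 with the smallest p and no overlap were all higher in Mboat7-/- cortices. Enah, which extends actin filaments at junctions, measured 189 and 179 against 242 and 238 CPM (0.38, standard error 0.06, adjusted p = 0.183, edgeR). Myh10, a non-muscle myosin, was at 0.28, Amotl1, an angiomotin, at 0.47, Rock2, a kinase that activates myosin, at 0.36, and Dlg5, a junction scaffold, at 0.28. At E12.5, 68 were tested with a median of 0.033, none was called, and 1 had an unadjusted p under 0.05 (4.11% of all genes), Cdh10, a type II cadherin, with 127 and 102 counts against 165 and 184 (0.50, standard error 0.21, adjusted p = 0.958, edgeR).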

How the data were processed

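Poly(A)-selected RNA of 8 dissected mouse cortices was sequenced. The authors deposited raw read counts per gene, 1 table per stage and 1 column per embryo, without normalization. The submitters' processing notes name HISAT2, Subread and the builds mm10 and GRCm39, without saying which table they refer to, and versions are not given in the sources used here. Symbols and Ensembl identifiers were joined through a gene name table and RefSeq synonyms of GRCm38.p6, giving 22803 genes in both tables, with 5 of the 40 genes under an older symbol at E11.5.

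Within a stage, genotypes were compared in edgeR 4.0.16 (R 4.3.3) by its quasi-likelihood test after TMM normalization and filterByExpr (minimum count 10), with Benjamini-Hochberg adjustment over all genes tested. Fits over all 8 cortices had stage, or stage and its interaction with genotype, as terms. CPM in the text are deposited counts divided by the normalized library size (floors use the total count), and per-kb levels divide them by the exon length in GENCODE M21. The chi-square per degree of freedom between replicates was 8.47 to 14.4, so every cortex was counted as a separate sample. With 2 embryos per group, p-values measure the spread between these embryos only, and floors of 3 counts cover counting error only.

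Replicate and batch numbers are equal in the labels, so that within a stage cortices with 1 number share a batch label. The fits reported as the comparison have no block, and the fit with the replicate block pairs cortices by that number. Across genes, the difference between replicates 1 and 2 was correlated between the genotypes, giving 0.083 (E11.5) and -0.2 (E12.5). Such small or negative correlations gave the pairing little support, and the values with the replicate block rest on it. The description of E12.5 Mboat7+/- replicate 2 repeats the column name of replicate 1, and its column was matched by the replicate number in the title and in the column's own name. As alternatives, DESeq2 1.42.0, RLE or upper-quartile scaling, a filter of 10 counts in every cortex or none, the replicate block, removal of a length and GC trend (splines, 5 degrees of freedom) with or without that block, and leaving out each cortex were run. A crossed pairing at E12.5 was added after the data were seen. In simulated counts of all genes tested, log2 fold changes of 1 and 2 were found for 71% and 90% of the changed genes at E11.5 and for 73% and 93% at E12.5, and smaller changes, such as those of most of the 40 genes, were not simulated.

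The members and lists were chosen with earlier results of these data known. Full values are given for Cdh1, Cdh2, Tjp1 and each of the 40 genes with an unadjusted p under 0.05 at a stage or between stages, and of the wider list for at most 5 genes per stage with the smallest p under 0.05 and no overlap. Cdh3, Pdgfra and the epithelium markers were named after their values were seen. Another dorsal cortex marker is not reported here. Sequences are from RefSeq, GRCm38.p6. Of the marker lists not described in the text, none had a gene called, and the fold changes above 0 were as follows: radial glia 2 of 8 at E11.5 and 4 of 8 at E12.5, intermediate progenitors 0 of 4 and 4 of 4, endothelium 4 of 5 and 5 of 5, ventral telencephalon 1 of 6 and 0 of 6, choroid plexus 0 of 3 and 4 of 4, epithelium at E12.5 1 of 3 tested.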

Additional observations from a re-analysis of the deposited data

Results flagged for a closer look

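In 4 of the 40 genes every Mboat7-/- cortex lay above every Mboat7+/- cortex at E11.5 and below at E12.5, a pattern found in 2.5% of 14980 shared genes. The opposite pattern was found in 0 of the 40 and in 2.61% of shared genes. The difference between the stages, E12.5 minus E11.5 on the log2 scale, was -0.21 for Ctnnb1, -0.53 for Shroom3, -1.73 for Crb1 and -0.19 for Scrib. In edgeR's interaction test the adjusted p was 0.860, 0.595, 0.794 and 0.867, so that none of the 4 passed an FDR under 0.05. The unadjusted p was under 0.05 for Shroom3 and Crb1. Groups of 2 cortices are too small for a check of single outlying samples.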

How the results depend on the processing

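At E11.5 the count of genes called among the 40 was 0, and it was 3 with DESeq2, 4 with no filter on low counts (317 of 18103 genes), 4 with the replicate block and 0 to 11 with a cortex left out, the 11 without Mboat7-/- replicate 2. The 13 with an unadjusted p under 0.05 became 6 with the length and GC trend removed, 8 with the trend removed and the block, and 6 to 18 with a cortex left out. Of all genes tested, 13.8% were at that threshold in the main fit, 9.64% with the trend removed and 12.4% with the block too. With a cortex left out, the share of all genes was lowest in the fit with 6 and highest in the fit with 18. These counts of the 40 thus moved along with the share of all genes. The median of 0.084 (-0.006 over all genes) became 0.031 (-0.021) with the trend removed and 0.030 (-0.022) with the block too. It was 0.068 (-0.022) with upper-quartile normalization and 0.099 to 0.107 (-0.008 to 0.006) with a cortex left out. The median of all genes thus moved with the setting as well. In fits that kept all 4 cortices of E12.5 the count called was 0, and it was 1 (Crb1) with the trend removed and the block (0.319% of all genes). Fits with a cortex left out, which leave a group with 1 cortex, are not counted in this. In them the fold change of Crb1 ran from -1.72 to -0.49. The 2 with an unadjusted p under 0.05 (4.11% of all genes) became 1 with DESeq2 (2.02% of all genes). With the crossed replicate pairing they became 8 (12.4% of all genes, none of the 40 called). The median of -0.007 (0.005 over all genes) became -0.054 (-0.025) with the trend removed and -0.058 (-0.026) with the block too. With a cortex left out it was -0.062 to 0.001 (-0.004 to 0.015). With no filter, 1 gene was called over both stages (Cdh11, among 98 of all 18364 genes) and 1 between stages (Crb1, among 70), and between stages 0 to 1 (Ctnna2, without E11.5 Mboat7-/- replicate 2) with a cortex left out. The replicate block changed no other call among the 40.

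Over all 40 genes, taking out the trend turned the direction of 6 at E11.5 and 4 at E12.5, and with the block too of 7 and 4. Leaving out some cortex turned 12 at E11.5 and 21 at E12.5. None of the 12 was among the 13 with an unadjusted p under 0.05. The genotypes did not overlap in any of those 13, so leaving out a cortex could hardly turn them. Among the 12 were Ctnna2 (-0.61 to 0.09), Nectin2 (-0.09 to 0.33), Cdh4 (-0.20 to 0.11), Pard6a (-0.41 to 0.10), Prkcz (-0.22 to 0.27) and Llgl2 (-0.40 to 0.33).

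Of the genes given in full, Cdh2 turned with the trend removed and with the trend and block. It was at -0.0271 and -0.0277 at E11.5, -0.0045 and -0.0049 at E12.5, and 0.0219 and 0.0221 between stages. The medians of all genes in those fits were -0.021 and -0.022, -0.025 and -0.026, and -0.012 and -0.012. With a cortex left out, fold changes of these genes that crossed 0 ran at E12.5 from -0.0605 to 0.2876 for Afdn, -0.5467 to 0.0548 for Cdh1, -0.0041 to 0.3828 for Cdh11, -0.0884 to 0.0695 for Ctnnd1, -0.0222 to 0.0134 for Fat1, -0.0032 to 0.2764 for Mpp5 and -0.025 to 0.1416 for Vcl, and between stages from -0.3200 to 0.0335 for Afdn, -0.1014 to 0.0346 for Cdh2 and -0.7368 to 0.0017 for Cdh6. The cause of these changes was not tested. Of the 360 values of the genes given in full under the other alternatives, the 6 for Cdh2 turned direction. With 2 embryos a group, the 95% confidence intervals at E11.5 were 0.12 to 0.40 for Afdn and 0.05 to 1.48 for Crb1, the gene with the lowest level per length there.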
